A study of Mus musculus with 9 samples.

Results

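The transcription factors and cadherins of the switch between epithelial and mesenchymal cell states were followed, 10 genes chosen by symbol, in the whole kidney of Col4a3 knockout mice. They were the transcription factor genes Snai1, Snai2, Twist1, Zeb1 and Zeb2 and the cadherin genes Cdh1, Cdh2, Cdh6, Cdh11 and Cdh16. All 10 were found among the 22637 gene symbols of the deposited tables, and all 10 were among the 17315 genes with enough counts to test. They were listed by name, with no threshold on a measured value.

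Messenger RNA was counted in 9 libraries, 3 per group, from mice of the 129X1/SvJ strain at 9 weeks of age. The first group were Col4a3 -/- mice treated with antimiR-21, which targets the microRNA miR-21 (KO_antimiR21). The second were Col4a3 -/- mice given PBS (KO_PBS), and the third were wild-type mice with no treatment (WT). Both knockout groups thus share the Col4a3 deletion and a treatment, whereas WT mice had neither, so genotype and being treated cannot be told apart in the comparisons with WT. Col4a3 encodes a chain of the type IV collagen of the glomerular basement membrane, and its loss is a mouse model of Alport syndrome. The labels leave unsaid whether each library is a separate animal, although each deposited name starts with a different number, of unstated meaning. A p-value thus reflects the spread among libraries, which may be partly technical. WT libraries were of both sexes, by Y-linked transcripts and by the F or M in their deposited names, so not all of them came from the same animal.

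Total expected counts ranged from 26448275 to 31786624 per library. Col4a3, the targeted gene, had 104, 70.6 and 138 CPM (the count scaled to the TMM-adjusted library total) in KO_antimiR21 kidneys and 44.3, 94.3 and 60.2 CPM in KO_PBS kidneys, against 371, 257 and 316 CPM in WT kidneys. Its level was lower in each knockout library than in any WT library. Y-linked transcripts marked WT 1 and WT 3 as female and the other 7 libraries as male. The deposited names of WT 1 and WT 3 carry F and that of WT 2 carries M. The deposited names also carry a code of unstated meaning. It was L5 in every KO_antimiR21 library and in KO_PBS 3, and L4 in KO_PBS 1, in KO_PBS 2 and in every WT library. Code and treatment can be separated only through KO_PBS, and sex and genotype only through WT 2.

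Cadherins are calcium-dependent adhesion proteins that join like cells to each other through adherens junctions, with catenins linking their tails to actin. Cdh1 (E-cadherin) holds epithelial sheets together, and Cdh16 (kidney-specific cadherin) is a tubule epithelial protein. Snail, Twist and ZEB factors are DNA-binding proteins best known as repressors of Cdh1 and of other epithelial genes, and in many tissues also as inducers of mesenchymal genes. Fibroblasts, macrophages and endothelium of the kidney express some of these factors without any epithelial origin, and a whole-kidney measurement sums all cells. In such bulk samples, fewer cells of a type and less RNA per cell cannot be told apart.

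MicroRNA seeds bear on these genes by sequence. MiR-21 is the target of the inhibitor, and the miR-200 family forms a known loop of mutual repression with the ZEB factors. The mature sequences below come from RefSeq (GRCm38.p6, written 5′ to 3′), with bases 2 to 8, the seed, in capitals. MiR-21a-5p lies at chr11:86584120-86584141 on the minus strand and miR-200b-3p at chr4:156055685-156055706 on the minus strand.
miR-21a-5p: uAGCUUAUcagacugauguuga
miR-200b-3p: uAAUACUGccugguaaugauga
MiR-200c-3p and miR-429-3p carry the same seed as miR-200b-3p. MiR-200a-3p and miR-141-3p, of the same family, carry the seed AACACUG. The levels of these miRNAs were not analysed here.

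The longest 3′ untranslated region in GENCODE vM21 (GRCm38) was searched for sites complementary to each seed, in 14585 of the 17315 tested genes and in all 10 members. The miR-21 site ATAAGCT was present in 8.3% of the searched regions and in 1 of the 10 members, Cdh6, once. The site of the miR-200b seed, CAGTATT (named miR-200 site below), was present in 15.7% of the searched regions. Zeb1 and Zeb2 each held it 5 times, Snai1, Snai2 and Cdh11 each held it once, and Twist1, Cdh1, Cdh2, Cdh6 and Cdh16 held none. The site of the miR-200a seed, CAGTGTT, was present in 21.2% of the searched regions. Zeb1 and Zeb2 each held that site 4 times, Snai2 and Cdh6 each held it once, and the remaining members held none. The Cdh6 miR-21 site is shown because Cdh6 is the 1 member with a match to the inhibited miRNA. The Zeb2 sites shown are those of the miR-200b seed, because Zeb2, higher in KO_PBS than in WT, has 5 such matches. Capitals mark the complement of the seed.
Cdh6 miR-21 site: tgcttcctagaATAAGCTgagattttaaa
Zeb2 miR-200 site 1: ctaccatacatCAGTATTttattattatt
Zeb2 miR-200 site 2: ctacagtgcatCAGTATTacgattcctca
Zeb2 miR-200 site 3: agcacccgtgtCAGTATTagacgactagg
Zeb2 miR-200 site 4: attaattttgtCAGTATTacaccaaactt
Zeb2 miR-200 site 5: actgtagtgtaCAGTATTatagttcttca
The site letters are a description of the sequence and say nothing of binding in these kidneys.

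In knockout kidneys given PBS, the mesenchymal cadherin gene Cdh11 was 5.04-fold higher than in WT, Zeb2 and Snai1 were also higher, and the tubule cadherin gene Cdh16 was lower. Cdh1, the gene that the 5 factors are known to repress, was at 254 ± 5.03 CPM in KO_PBS and 261 ± 20 CPM in WT (SD, n = 3 each). With edgeR's quasi-likelihood test, 4 of the 10 members passed at an adjusted p under 0.05, 3 of them higher and 1 lower. Over all 17315 tested genes, 14.6% passed as higher and 9.85% as lower. The median log2 fold change was 0.76 over the 10 members and -0.03 over all tested genes. With sex as a covariate, or in male libraries only, none of the 10 members passed, and neither did any other gene with edgeR, although 4389 and 4396 genes had an unadjusted p under 0.05. Cdh11 was then at 2.45 (edgeR adjusted p = 0.0553) and 2.48 (0.0734), Zeb2 at 0.98 (0.1) and 1 (0.108), Snai1 at 1.85 (0.113) and 1.87 (0.135), and Cdh16 at -0.40 (0.397) and -0.37 (0.451).

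Among the zinc-finger factors of the Snail family, Snai1 (Snail) had 3.04, 3.81 and 5.31 CPM in KO_PBS kidneys, against 2.03, 1.12 and 1.41 CPM in WT kidneys. Every KO_PBS library was above every WT library. The log2 fold change was 1.41 ± 0.39 (SE), with a 95% interval of 0.53 to 2.30 and an edgeR adjusted p of 0.03. The call was lost without WT 2 (edgeR adjusted p = 0.0878), without WT 3 (0.0914), without KO_PBS 2 (0.0675) and without KO_PBS 3 (0.0985), with the difference in the same direction each time. Within the L4 libraries it was 1.17 (edgeR adjusted p = 0.0784). Snai2 (Slug), its close relative, had 2.19, 4.07 and 3.79 CPM in KO_PBS kidneys, against 3.29, 2.49 and 2.65 CPM in WT kidneys. Its groups overlapped, and the log2 difference of 0.25 had a 95% interval of -0.42 to 0.92.

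Early-response transcripts also differed between these libraries. The summed level of 12 immediate-early genes ran from 440 to 1110 CPM in KO_PBS and from 161 to 601 CPM in WT. In KO_PBS over WT, 5 of the 12 passed as higher, where 14.6% of all tested genes did. WT 1 and KO_PBS 3 had the lowest sums of their groups and also the highest Snai1 levels of their groups. The part of such transcripts in the Snai1 difference was not tested.

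The basic helix-loop-helix factor gene Twist1, which acts in mesenchymal cells, was near the lower limit of detection. It had 0.877, 1.17 and 1.06 CPM in KO_PBS kidneys, against 0.422, 0.481 and 0.442 CPM in WT kidneys. The groups did not overlap, but the log2 fold change of 1.19 ± 0.47 had an edgeR adjusted p of 0.0953. Without KO_antimiR21 2, which enters the shared estimate of spread, it passed at 1.19 with an edgeR adjusted p of 0.0279, and without any other single library Twist1 did not pass. Its counts ran from 6 to 35 reads over the 9 libraries, so counting error was large.

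The ZEB factors carry zinc-finger clusters on both sides of a homeodomain. Zeb2 had 42.8, 56.6 and 53.2 CPM in KO_PBS kidneys, against 29.6, 25.8 and 21.8 CPM in WT kidneys. The lowest KO_PBS library was above the highest WT library. The log2 fold change was 0.98 ± 0.19, with an edgeR adjusted p of 0.00785, and the call held in all 9 fits that left out 1 library each, at 0.85 to 1.11. Within the L4 libraries it was 0.95 (edgeR adjusted p = 0.0275). Zeb1 had 15.2, 17.7 and 16.8 CPM in KO_PBS kidneys, against 11.4, 11.3 and 13.5 CPM in WT kidneys. The groups did not overlap, yet the log2 fold change of 0.46 ± 0.15 missed the threshold (edgeR adjusted p = 0.050004). Zeb1 passed with limma (adjusted p = 0.0402) and with DESeq2 (adjusted p = 0.0117), but in none of the 9 edgeR fits that left out 1 library, nor with sex as a covariate (edgeR adjusted p = 0.173).

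Zeb2 is also a gene of macrophages, whose marker list moved in the same samples. The summed level of 9 macrophage markers was 639 to 793 CPM in KO_PBS and 161 to 194 CPM in WT, with none at 0 in any library. Of all tested genes 14.6% passed as higher, and of these markers 8 of the 9 did. Csf1r was the exception, at a log2 difference of 0.29 ± 0.13. The part of these cells in the Zeb2 difference was not tested.

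Cdh11 (OB-cadherin), an adhesion protein of mesenchymal cells and fibroblasts, had 38.6, 67.9 and 37.1 CPM in KO_PBS kidneys, against 12, 8.74 and 7.76 CPM in WT kidneys. The lowest KO_PBS library exceeded the highest WT library, and KO_PBS 2 stood highest. The log2 fold change was 2.33 ± 0.30, with a 95% interval of 1.66 to 3.01 and an edgeR adjusted p of 0.0017. It ranked 285th by p among the 17315 genes and held its call in all 9 fits that left out 1 library, with 2.55 the highest estimate. Fibroblast markers moved beside it: the sum of 7 was 1440 to 1830 CPM in KO_PBS and 210 to 259 CPM in WT. Of the 7, 5 passed as higher, where 14.6% of all tested genes did, and 2 did not pass. The median log2 fold change of the 7 was 1.29. Col1a1 and Col3a1 lay far above that median, higher by 4.11 ± 0.42 and 3.78 ± 0.38 on the log2 scale. Within the L4 libraries Cdh11 was at 2.49 (edgeR adjusted p = 0.00707). The part of fibroblasts in the Cdh11 difference was not tested.

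Cdh16 had 688, 824 and 956 CPM in KO_PBS kidneys, against 1390, 1080 and 1240 CPM in WT kidneys. Every KO_PBS library was below every WT library. The log2 fold change was -0.59 ± 0.19, 1.5-fold lower, with an edgeR adjusted p of 0.0476. Among the 9 fits that left out 1 library it was kept only without KO_PBS 3 (edgeR adjusted p = 0.0469), and without any other single library it was lost (edgeR adjusted p = 0.056 to 0.146). Within the L4 libraries it was -0.70 (0.0752). Scaling by library size alone gave -0.31 with an edgeR adjusted p of 0.233. Tubule markers fell beside it, where 9.85% of all tested genes passed as lower. In KO_PBS, 5 of 8 proximal tubule, 5 of 7 thick limb and distal tubule and 4 of 8 collecting duct markers passed as lower. Their part in the Cdh16 difference was not tested.

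Cdh1 had 252, 250 and 260 CPM in KO_PBS kidneys, against 264, 280 and 240 CPM in WT kidneys. The ranges overlapped, and the log2 difference of -0.04 had a 95% interval of -0.41 to 0.32, which covers changes in both directions. Cdh2 (N-cadherin), a cadherin of neural and mesenchymal cells that mouse proximal tubules also make, had 9.45, 9.85 and 7.55 CPM in KO_PBS kidneys, against 4.56, 7.7 and 4.18 CPM in WT kidneys. WT 2 reached above the lowest KO_PBS library, and the log2 difference of 0.71 ± 0.29 did not pass (edgeR adjusted p = 0.106). Without WT 2 Cdh2 did pass, at 1.05 with an edgeR adjusted p of 0.0289. With sex as a covariate Cdh2 was at 0.22 (edgeR adjusted p = 0.74), and in male libraries only, where WT 2 is the single WT library, at 0.24 (0.719). Cdh6 (K-cadherin), found in the developing nephron, had 5.73, 7.31 and 11.7 CPM in KO_PBS kidneys, against 6.45, 2.93 and 4.71 CPM in WT kidneys, and its groups overlapped (edgeR adjusted p = 0.257).

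Without overlap between KO_PBS and WT were 5 members higher in KO_PBS (Snai1, Twist1, Zeb1, Zeb2 and Cdh11) and 1 lower (Cdh16). Over all tested genes, 22.6% were higher and 20.5% lower without overlap. The scaling mattered to these counts: by library size alone, 6 members passed as higher and 0 as lower, where 21.7% of all genes passed as higher and 5.22% as lower, and the median of all genes moved to 0.25 on the log2 scale. That scaling moved the medians of KO_antimiR21 over KO_PBS and KO_antimiR21 over WT to -0.14 and 0.11.

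**Figure D1:**
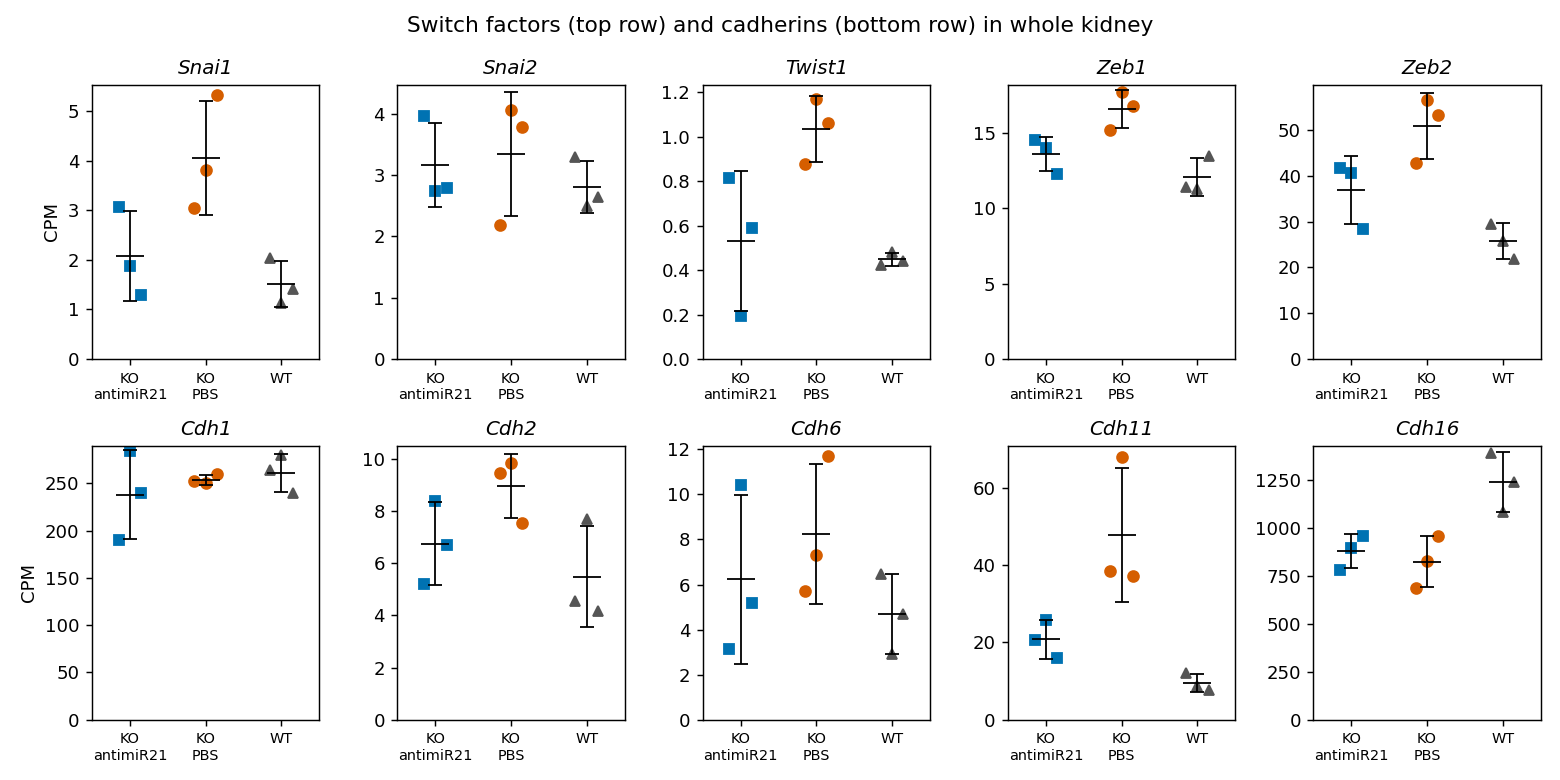
Level of each of the 10 members in CPM (1 panel per gene, linear axis) in KO_antimiR21, KO_PBS and WT kidneys; points are libraries and bars give the mean ± SD of 3. For Cdh11 the KO_PBS points, from 37.1 to 67.9 CPM, lie above all others, whereas the Cdh1 points of the 3 groups overlap.

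The inhibitor comparison asked how far the members of knockout kidneys moved when miR-21 was targeted. KO_antimiR21 levels of Cdh11 were 20.6, 25.9 and 15.9 CPM, against 38.6, 67.9 and 37.1 CPM in KO_PBS, and the groups did not overlap. Yet 0 of the 10 members passed in this comparison, as did 0% of all 17315 genes with edgeR, where 1203 genes had an unadjusted p under 0.05. On the same libraries, limma called 0 genes and DESeq2 called 19, none of them a member. Unadjusted, 3 members were under 0.05 (Snai1, Zeb2 and Cdh11), all lower in KO_antimiR21, against 6.95% of all tested genes in either direction.

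Cdh11 had a log2 fold change of -1.20 ± 0.29 (95% interval -1.85 to -0.55), an unadjusted p of 0.00237 and an edgeR adjusted p of 0.707. It ranked 23rd by p in the whole table. Within the L5 libraries, an alternative chosen after seeing the data, the difference was -0.84 ± 0.32 with a single KO_PBS library. The sum of the 7 fibroblast markers was 418 to 869 CPM in KO_antimiR21 and 1440 to 1830 CPM in KO_PBS, with 0 of the 7 passed, and their part in the Cdh11 difference was not tested.

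Zeb2 had 41.7, 40.6 and 28.3 CPM in KO_antimiR21 kidneys, against 42.8, 56.6 and 53.2 CPM in KO_PBS kidneys. The highest KO_antimiR21 library was just below the lowest KO_PBS library. Its log2 fold change was -0.46 ± 0.19 (edgeR adjusted p = 0.707). Macrophage markers summed to 313 to 627 CPM in KO_antimiR21 and to 639 to 793 CPM in KO_PBS. KO_antimiR21 3 was the lowest of these 6 libraries for Zeb2 and for the marker sum. KO_PBS 1, by contrast, had the highest marker sum of the 6 and the lowest Zeb2 of its group. None of the 9 markers passed. The part of macrophages in this difference was not tested.

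Snai1 had 3.06, 1.87 and 1.29 CPM in KO_antimiR21 kidneys, against 3.04, 3.81 and 5.31 CPM in KO_PBS kidneys, and its groups overlapped at KO_antimiR21 1 and KO_PBS 1. Its log2 fold change was -0.97 ± 0.38 (edgeR adjusted p = 0.707). Immediate-early genes summed to 324 to 434 CPM in KO_antimiR21 and 440 to 1110 CPM in KO_PBS. The part of these transcripts in the Snai1 difference was not tested.

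Twist1 had 0.815, 0.193 and 0.588 CPM in KO_antimiR21 kidneys, against 0.877, 1.17 and 1.06 CPM in KO_PBS kidneys. Zeb1 had 14.5, 14 and 12.3 CPM in KO_antimiR21 kidneys, against 15.2, 17.7 and 16.8 CPM in KO_PBS kidneys. Neither pair of groups overlapped, and both genes had edgeR adjusted p-values over 0.7. In all, 4 members were lower in KO_antimiR21 without overlap (Twist1, Zeb1, Zeb2 and Cdh11), where 6.85% of all tested genes were.

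The epithelial cadherins did not separate these 2 groups. Cdh1 had 190, 284 and 240 CPM in KO_antimiR21 kidneys and 252, 250 and 260 CPM in KO_PBS kidneys, a log2 difference of -0.09 with an interval of -0.46 to 0.27. Cdh16 had 782, 896 and 955 CPM in KO_antimiR21 kidneys and 688, 824 and 956 CPM in KO_PBS kidneys, a log2 difference of 0.09 with an interval of -0.32 to 0.51. Cdh6, the only member with a miR-21 site, had 3.14, 10.4 and 5.18 CPM in KO_antimiR21 kidneys and 5.73, 7.31 and 11.7 CPM in KO_PBS kidneys, with a log2 difference of -0.40 ± 0.47. Cdh2 differed by -0.40 ± 0.28 and Snai2 by -0.08 ± 0.30 on the log2 scale, both with overlapping groups. The median log2 fold change was -0.40 over the 10 members and -0.01 over all tested genes.

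Set against WT, KO_antimiR21 kidneys differed in 2 members without overlap. This comparison shares its libraries with those above. Cdh11 had 20.6, 25.9 and 15.9 CPM in KO_antimiR21 kidneys, against 12, 8.74 and 7.76 CPM in WT kidneys, a log2 fold change of 1.13 ± 0.29. Its edgeR adjusted p was 0.0515, just over the threshold. It passed without KO_PBS 2 (edgeR adjusted p = 0.0319), without KO_antimiR21 3 (0.0378) and with the replicate number as a block (0.0448). It did not pass with sex as a covariate (0.316), in male libraries only (0.299), with library code as a covariate (0.298), without WT 3 (0.171) or without KO_antimiR21 2 (0.19). Over all these alternatives Cdh11 stayed higher in KO_antimiR21 than in WT. Cdh16 had 782, 896 and 955 CPM in KO_antimiR21 kidneys, against 1390, 1080 and 1240 CPM in WT kidneys, a log2 fold change of -0.50 ± 0.18 (edgeR adjusted p = 0.173). None of the proximal tubule, thick limb and distal tubule or collecting duct markers passed here, where 0.427% of all tested genes passed as lower. The medians of these 3 lists were -0.80, -0.91 and -0.68 on the log2 scale. The part of tubule cells in the Cdh16 difference was not tested. Of all tested genes, 14.6% were higher and 9.83% lower without overlap.

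With edgeR, 0 of the 10 members passed in this comparison, where 6.72% of all tested genes passed as higher and 0.427% as lower. Unadjusted, 3 members were under 0.05 (Zeb2, Cdh11 and Cdh16), where 20.2% of all tested genes were. On the same libraries limma called 1 member (Cdh11) and 7.33% of all genes, and DESeq2 called 2 members (Cdh11 and Cdh16) and 11.6% of all genes. Zeb2 had a log2 fold change of 0.52 ± 0.19 with an interval of 0.09 to 0.95 (edgeR adjusted p = 0.167). Snai1, Twist1, Zeb1 and Cdh2 had overlapping groups, with log2 differences between 0.17 and 0.45. The median over the 10 members was 0.27, against -0.04 over all tested genes.

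**Figure D2:**
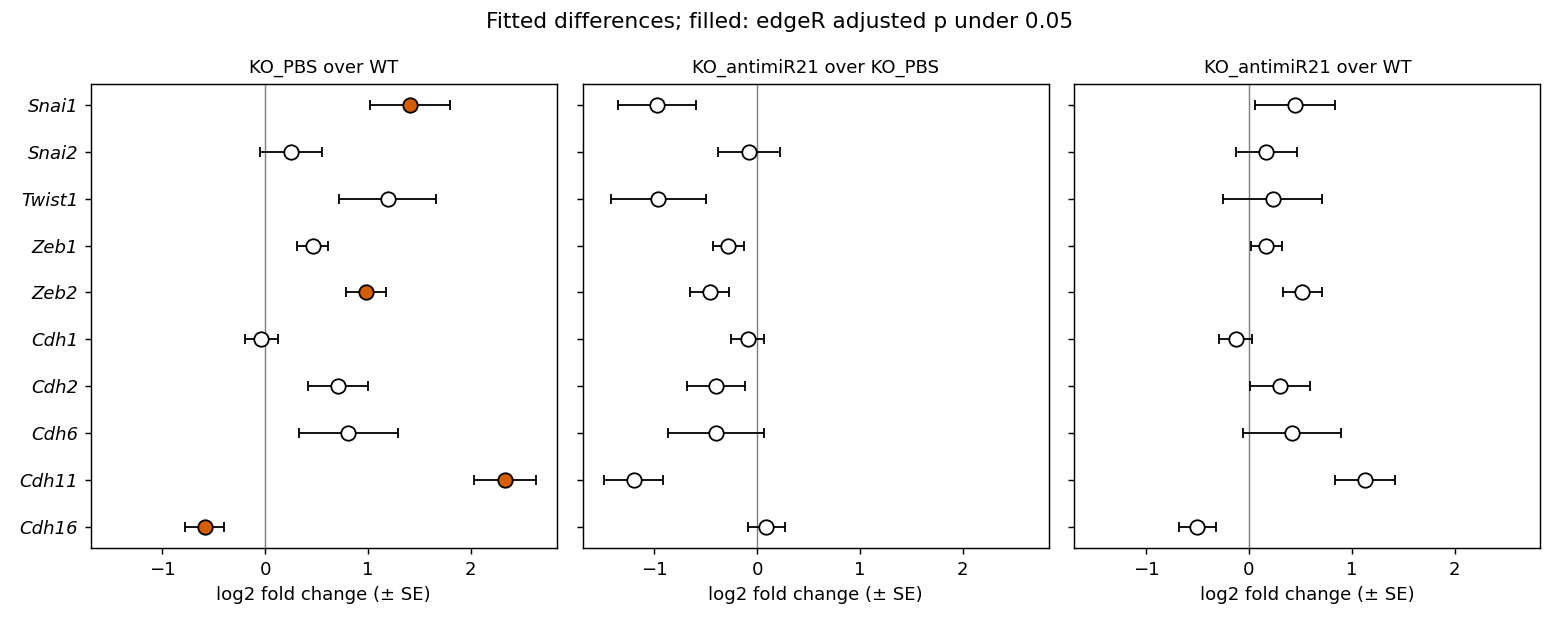
Log2 fold change of each of the 10 members with its standard error (horizontal bars) in the comparisons KO_PBS over WT, KO_antimiR21 over KO_PBS and KO_antimiR21 over WT; filled orange marks an edgeR adjusted p under 0.05. The 4 filled points, Snai1, Zeb2, Cdh11 and Cdh16, are all in KO_PBS over WT, and the Cdh11 estimate there is 2.33.

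Levels were set on a per-length scale to compare genes, as CPM per kilobase of the longest annotated protein-coding transcript. Cdh16 was the leading cadherin in every group, at 300 in KO_antimiR21, 281 in KO_PBS and 423 in WT. Cdh1 followed at 53.8, 57.3 and 59 in the same groups. The endothelial Cdh5 was at 7.91, 8.83 and 9.85 in these groups. Cdh3, which is not a member, was at 7.25, 11.6 and 2.42, and Cdh11 at 3.68, 8.47 and 1.68. Cdh2 was at 1.39, 1.85 and 1.13, and Cdh6 at 0.767, 1.01 and 0.575. By group means, Cdh11 thus stood below Cdh1, Cdh5 and Cdh3 and above Cdh2 in each group.

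Summed per length over 20 cadherin genes, Cdh16 took 79.8 ± 2.43% in KO_antimiR21, 75.3 ± 3.31% in KO_PBS and 84.7 ± 1.97% in WT (SD, n = 3 each). Cdh11 took between 0.701% and 1.15% in KO_antimiR21, between 1.58% and 3.2% in KO_PBS and between 0.278% and 0.384% in WT, so the 3 groups did not overlap in this share. Cdh3 took 1.94 ± 0.746% in KO_antimiR21, 3.21 ± 1.33% in KO_PBS and 0.488 ± 0.0762% in WT. Cdh1 took 14.2 ± 1.66%, 15.5 ± 1.71% and 11.9 ± 1.79% in those groups. Its KO_PBS libraries (14.1% to 17.4%) lay just above the WT libraries (10.8% to 14.0%), and the KO_antimiR21 libraries overlapped both. A share also moves with the rest of the sum, most of which is Cdh16. Per kilobase, Cdh1 itself was at 57.3 in KO_PBS and 59 in WT, with overlapping libraries. Among the factors on the same per-length scale, Zeb2 led at 4.04 in KO_antimiR21, 5.57 in KO_PBS and 2.82 in WT, and Twist1 was lowest at 0.327, 0.635 and 0.276.

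**Figure D3:**
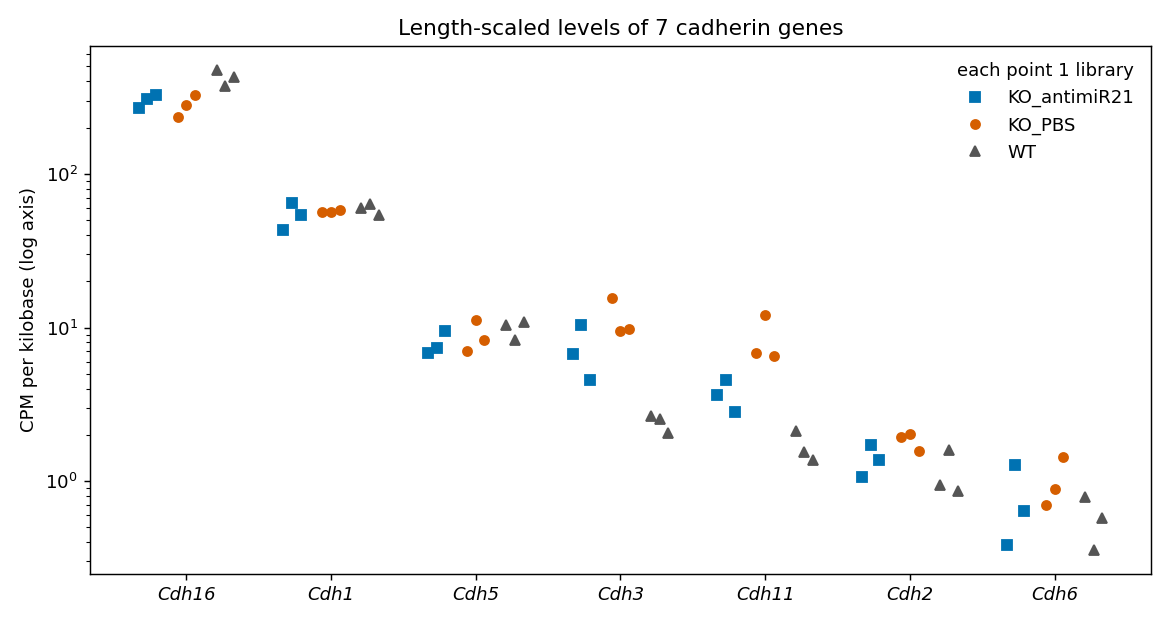
Length-scaled levels of 7 cadherin genes (CPM per kilobase, logarithmic axis) in KO_antimiR21, KO_PBS and WT libraries. Cdh16 lies highest in every library, and Cdh11 and Cdh3 are the genes whose KO_PBS libraries stand above the WT libraries most visibly, with Cdh11 means of 8.47 in KO_PBS and 1.68 in WT.

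The RefSeq promoter table (GRCm38.p6) held entries for 4 of the 10 members. Snai1 is shown because it is a called member and its product binds the E-box CACCTG or CAGGTG, including, in human cells, in its own promoter. In the 250 bases before the start, 17.2% of 32851 promoters held that motif on either strand, and it occurs once in the Snai1 window, at -126, in capitals. The window is chr2:167537945-167538194 on the plus strand.
Snai1 promoter: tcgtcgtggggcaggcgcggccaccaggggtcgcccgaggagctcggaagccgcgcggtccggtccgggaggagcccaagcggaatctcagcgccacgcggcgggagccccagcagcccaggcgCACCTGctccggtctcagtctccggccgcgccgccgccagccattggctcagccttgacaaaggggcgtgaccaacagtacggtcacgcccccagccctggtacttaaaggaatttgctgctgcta
The windows of Twist1, Zeb2 and Cdh6 did not hold these letters, and a match is no measurement of binding.

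Other genes of the same switch were grouped in lists of related function, with values from the same edgeR fit. Of 12 mesenchymal-state proteins, 11 passed as higher in KO_PBS than in WT, where 14.6% of all tested genes did. The list's median log2 fold change was 2.30, against -0.03 over all tested genes. The gelatinase gene Mmp9 was higher by 3.87 ± 0.43 (edgeR adjusted p = 0.00135), the matrix protein gene Sparc by 2.48 ± 0.28 (0.00135) and Mmp2 by 2.51 ± 0.24 (0.00135). Fap, a fibroblast protease gene, did not pass, at 0.73 ± 0.42. In KO_antimiR21 over KO_PBS, 0 of the 12 passed, with a median of -0.80. In KO_antimiR21 over WT, 8 passed as higher, where 6.72% of all tested genes did. The list's median there was 1.52. The 8 became 4 without WT 3 or without KO_antimiR21 2, 5 without KO_PBS 2 or in the 2 groups alone, and 0 with library code as a covariate. Of the 63 genes tested over all 6 lists, 26 passed in KO_PBS over WT, where 24.4% of all tested genes did. Of these 26, 11 were the mesenchymal-state proteins. In KO_antimiR21 over KO_PBS 0 passed, as did 0% of all tested genes. In KO_antimiR21 over WT 11 passed, where 7.15% of all tested genes did. With sex as a covariate each count was 0. The 11 calls in KO_antimiR21 over WT became 7 without WT 1, 4 without WT 3, 7 without KO_PBS 2 and 6 without KO_antimiR21 2.

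Of 8 other cadherins tested, 2 passed as higher in KO_PBS than in WT and 0 as lower. The shares over all tested genes were 14.6% and 9.85%, and the list's median log2 fold change was 0.29. Cdh3 (P-cadherin) had 67.8, 41.6 and 43.2 CPM in KO_PBS kidneys, against 11.7, 11.2 and 9.01 CPM in WT kidneys, with no overlap. Its log2 fold change was 2.26 ± 0.32 (edgeR adjusted p = 0.00208). Cdh24 was higher by 1.68 ± 0.33 (0.00854), and Cdh17 had 1.76 ± 0.68 and did not pass. Cdh3 also passed in KO_antimiR21 over WT, at 1.58 ± 0.31 (edgeR adjusted p = 0.0164), and the list had 0 calls there without WT 1, without WT 3 and with library code as a covariate.

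Of 13 catenins and junction partners, 4 passed as higher in KO_PBS than in WT, where 14.6% of all tested genes did. The list's median was 0.25. The 4 were the actin linker gene Vcl (0.88 ± 0.17), the nectin genes Pvrl2 (0.84 ± 0.18) and Pvrl4 (0.88 ± 0.22), and Ctnnd2 (1.78 ± 0.45). Ctnnb1, the gene of beta-catenin, was at 0.25 ± 0.25 and did not pass. The 4 became 2 without WT 3 or without KO_PBS 1. None of the 13 passed in either comparison of KO_antimiR21.

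Of 8 other switch transcription factors, 2 passed as higher in KO_PBS than in WT, where 14.6% of all tested genes did. The list's median was 0.39. Sox9, a gene of injured and regenerating tubules, was higher by 3.96 ± 0.57 (edgeR adjusted p = 0.00225), and the mesenchymal homeobox gene Prrx1 by 0.91 ± 0.28 (0.0426). Twist2, a relative of Twist1, had 1.65 ± 0.79 and did not pass. The 2 became 1 in the 2 groups alone, with the replicate block, and without WT 1, WT 2, WT 3, KO_PBS 1, KO_PBS 2 or KO_antimiR21 2. In KO_antimiR21 over WT, Sox9 passed again, at 2.82 ± 0.55 (edgeR adjusted p = 0.0151), and the list had 0 calls there without WT 3 and with library code as a covariate.

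Of 7 regulators of the epithelial state, 1 passed as higher and 2 as lower in KO_PBS than in WT, with a median of -0.28. Over all tested genes, 14.6% passed as higher and 9.85% as lower. Elf3 was higher by 1.53 ± 0.34 (edgeR adjusted p = 0.013). Ovol1, a repressor that maintains epithelial state, had a log2 fold change of -0.84 ± 0.23 (0.028). Rbm35b (Esrp2), an epithelial splicing regulator, had -0.49 ± 0.14 (0.0373), and it passed as lower in KO_antimiR21 over WT too, at -0.57 ± 0.14 (edgeR adjusted p = 0.049552). The list's KO_antimiR21 over WT count became 0 in 8 of the 9 fits that left out 1 library, all but that without KO_antimiR21 3. It was also 0 with limma, without the low-count filter, by library size, in the 2 groups alone, with the replicate block and with sex or library code as a covariate. In KO_PBS over WT, both lower calls were lost without WT 3, without KO_PBS 1, without KO_PBS 2 and by library size, each leaving 1 higher call.

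Of 15 epithelial junction and keratin genes, 4 passed as higher in KO_PBS than in WT and 0 as lower. The shares over all tested genes were 14.6% and 9.85%, and the list's median was 0.37. Krt8 was higher by 1.60 ± 0.26 (edgeR adjusted p = 0.00357), Krt19 by 2.60 ± 0.59 (0.0146), Pkp2 by 0.45 ± 0.12 (0.0242) and Krt7 by 0.86 ± 0.25 (0.0381). Keratins are the intermediate filaments of epithelia, and Pkp2 is a desmosome protein. The 4 became 1 without WT 3, and 2 without WT 1, without KO_PBS 1, without KO_PBS 2 or with the replicate block. No gene of this list passed in KO_antimiR21 over KO_PBS. In KO_antimiR21 over WT none passed with edgeR, but 1 did without WT 2, without KO_PBS 1, without KO_antimiR21 3, by library size and with limma, and 2 with DESeq2.

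**Figure D4:**
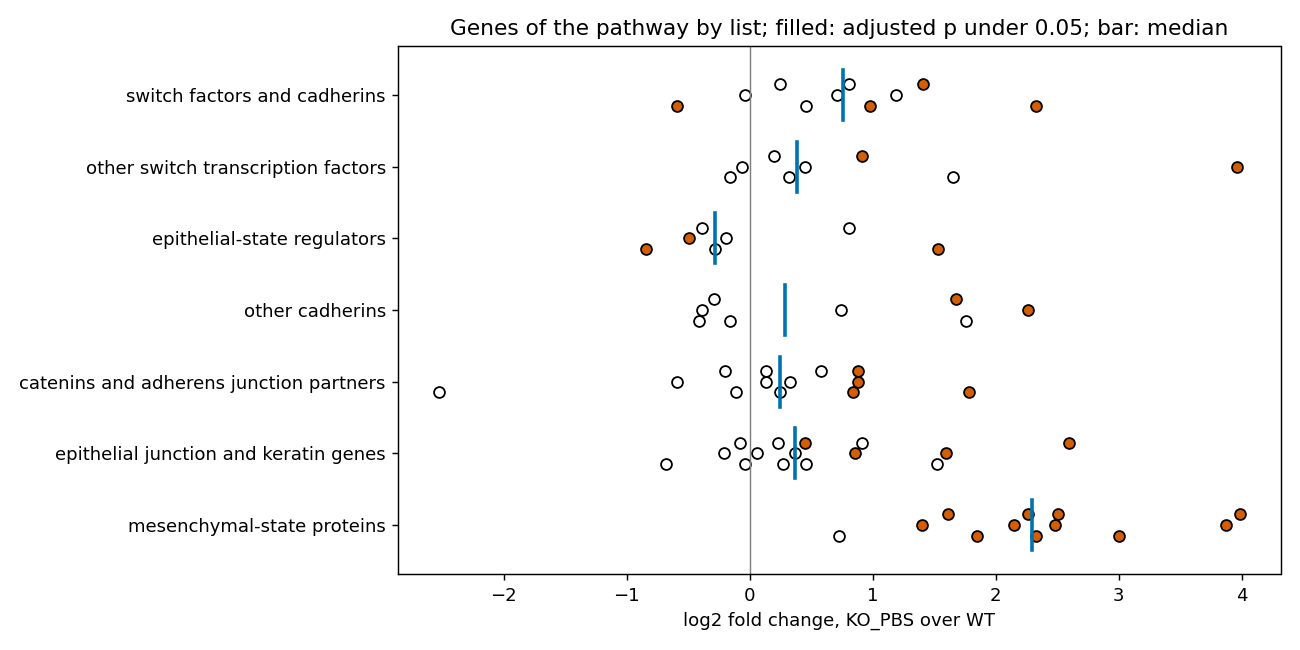
Log2 fold changes in KO_PBS over WT (1 point per gene) of the 10 members and of the 6 pathway lists; filled orange marks an edgeR adjusted p under 0.05 and the vertical bar is the list's median. Of the 12 mesenchymal-state proteins, 11 are filled, around a median of 2.30.

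Of the other markers measured, endothelial markers summed to 293 to 370 CPM in KO_antimiR21, 328 to 466 CPM in KO_PBS and 446 to 496 CPM in WT. Smooth muscle and pericyte markers summed to 80.2 to 104 CPM, 123 to 138 CPM and 79 to 93.2 CPM in those groups. Proximal tubule markers summed to 3460 to 6950 CPM in KO_antimiR21, 1430 to 4530 CPM in KO_PBS and 8500 to 12800 CPM in WT. T-cell markers summed to 12.3 to 23.4 CPM, 19.1 to 23.8 CPM and 4.94 to 6.23 CPM in those groups. All 8 passed as higher in KO_PBS than in WT, where 14.6% of all tested genes did. No marker of the 5 podocyte genes passed as different in KO_PBS over WT.

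**Figure D5:**
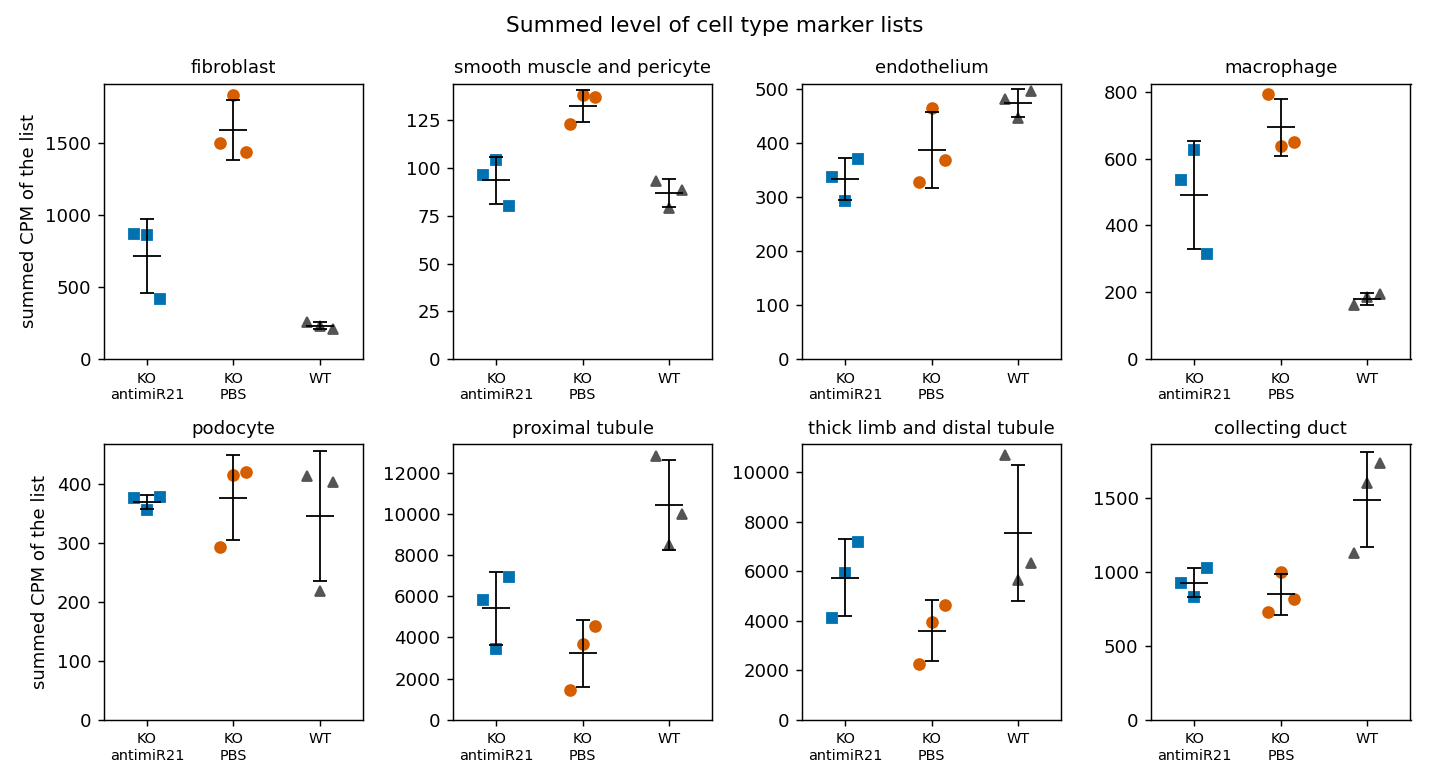
Summed CPM of 8 marker lists per library in KO_antimiR21, KO_PBS and WT kidneys, with bars for the mean ± SD of 3. Fibroblast markers lie at 1440 to 1830 CPM in KO_PBS and 210 to 259 CPM in WT, and proximal tubule markers are lower in both knockout groups than in WT.

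The genes most like each member were found over all 9 libraries by the root mean square difference of log2 CPM centred per gene, among 15068 candidates (15069 for Twist1). Nearest to Cdh11 were Ccdc80 at 0.18 and Col4a1 at 0.22, where the SD of Cdh11 itself was 0.99. Nearest to Snai1 were Lama2 (0.21) and Pdgfrb (0.23), against an SD of 0.70. Nearest to Zeb2 were 2810048G17Rik (0.10) and Dpy19l1 (0.13), against 0.45, and nearest to Cdh16 were Slc35f2 (0.06) and Btrc (0.07), against 0.30. Cdh1, with an SD of 0.16, was nearest to Camsap1 (0.04) and Vezf1 (0.05). For the other 5 members the nearest genes lay between 0.06 and 0.40. None of the nearest genes was another member, and no test was made of these likenesses.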

How the data were processed

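Per the labels' protocols, kidney RNA came from the miREASY kit and libraries from Illumina's TruSeq v2 reagents. The authors deposited expected counts per gene symbol for each library; RSEM, Bowtie and the mm9 genome are named in the submitters' processing notes, and versions, annotation and strand are not given in the sources used here. The authors also deposited a log2 matrix, whose columns equal log2 CPM plus 1 constant per library to within 5.2e-14. Counting without stated strand cannot separate overlapping or antisense genes.

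Expected counts were rounded, filtered by filterByExpr and fitted with edgeR 4.0.16 (R 4.3.3) as 3 group means over 9 libraries, with TMM factors of 0.894 to 1.15. Two-sided quasi-likelihood p-values were adjusted by Benjamini-Hochberg over 17315 genes within each comparison. Alternatives used limma 3.58.1 on the log2 matrix, DESeq2 1.42.0, other scalings, covariates and left-out libraries. Sex was called from Y-linked genes at 10 CPM or more. Replicates differed by far more than sampling noise. Same-numbered replicates did not deviate together (9 pairs, correlations -0.37 to 0.44, 3 over 0.1).

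Named genes were all members, Col4a3, the 3 lowest-p genes of each pathway list in KO_PBS over WT, listed markers, and the 2 genes most like each member; Ctnnd2, Ctnnb1, Fap and Krt7 were named after their values were seen. The members and lists were chosen with earlier results of these data known. The symbol Tcfe2a was used for E2A, since the tables' Tcf3 is another gene. Gene models, lengths and untranslated regions were from GENCODE vM21 (GRCm38), used for sequence and length only. Sequence searches and drawings used Python 3.11.15 with matplotlib 3.10.9, numpy 2.4.6 and pandas 2.3.3.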

Additional observations from a re-analysis of the deposited data

How the results depend on the processing

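The 4 calls in KO_PBS over WT became 2 in L4 libraries alone and 2 to 4 without single libraries. With sex as a covariate or male libraries only, where WT 2 is the only male WT library, 0 members and 0 genes of the whole table passed, against 4389 and 4396 genes at an unadjusted p under 0.05. In KO_antimiR21 over WT, 0 calls became 1 without the low-count filter, by library size, with the replicate block and with limma, 2 with DESeq2, and 0 to 1 without single libraries. The 26 pathway calls in KO_PBS over WT became 0 with sex or male libraries, and 18 to 27 without single libraries. The 11 in KO_antimiR21 over WT became 7 with the 2 groups only, 0 with sex, male libraries or library code, and 4 to 12 without single libraries. With the replicate block, 3 members passed in KO_PBS over WT and 0 in KO_antimiR21 over KO_PBS; numbers did not pair the samples. Zeb1 passed with DESeq2 size factors (0.0475), library size, DESeq2 and limma. Of 590 results under alternatives, 19 changed sign, none of them the difference of a called member in KO_PBS over WT. In KO_PBS over WT, Cdh1 became 0.24 by library size and ran from -0.13 to 0.03 without single libraries. In KO_antimiR21 over KO_PBS, Snai2 ran from -0.29 to 0.08 and Cdh1 from -0.22 to 0.04 without single libraries, and Cdh16 became -0.03 by library size and -0.12 with library code or in L5 alone (chosen after seeing the data). In KO_antimiR21 over WT, library code gave Snai1 -0.19, Snai2 -0.11 and Cdh6 -0.43, sex gave Cdh2 -0.19 (male only -0.16), library size gave Cdh1 0.03, and without single libraries Snai2 ran from -0.02 to 0.33, Twist1 from -0.21 to 0.66 and Cdh6 from -0.16 to 0.74. The causes were not tested. Depth limits Twist1 most.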
